A study of Mus musculus with 8 samples.

Results

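The Eph receptors and ephrins considered here were 10 mouse genes, chosen by gene symbol: Epha2, Epha3, Epha4, Epha5, Epha7, Ephb2, Ephb3, Ephb4, Efnb1 and Efnb2. Of these, 9 were measured, by 27 probe sets, among 18193 genes on the arrays, and no probe set carried the symbol Ephb2 in the annotation used, so the expression of that gene was not analysed here. The samples were 4 tumour lines (numbered 3 to 6) derived from separate tumours of MYCN-transfected JoMa1 cells in immunocompromised mice, 1 JoMa1 library labelled GFP-transfected, and 3 arrays of the parental JoMa1 line. The labels call the tumour samples both tumours and derived cells, and the protocol describes cells harvested from culture. JoMa1 is a mouse neural crest precursor line that carries a tamoxifen-activated MYC fusion, which all 3 groups would share. Whether tamoxifen was present, the promoter driving MYCN, the species of that MYCN, and the strain and age of the host mice are not given in the sources used here. All groups descend from a single cell line, and host cells left in a tumour line would be mouse cells as well, which these arrays would read with the same probes.

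Eph receptors are receptor tyrosine kinases, and their ligands, the ephrins, are themselves held on the surface of neighbouring cells, so that signalling needs contact between cells and can run in both directions. EphA receptors mostly bind ephrin-A ligands, which are attached by a lipid anchor, and EphB receptors mostly bind ephrin-B ligands, which span the membrane. EphA4 also binds ephrin-B ligands. In the embryo, Eph receptors and ephrins steer the paths of migrating neural crest cells and sharpen boundaries between tissues, and EphB4 with ephrin-B2 separates veins from arteries.

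Levels are log2 values that the authors made with RMA, a method that removes background, gives every array the same distribution of values and combines the probes of a set, so 1 unit is a 2-fold difference. A level can be compared between samples for the same probe set, not between genes. The array medians ran from 6.26 to 6.30, and the bacterial trpnX control probe sets, which mouse RNA should not bind, read 3.56 to 4.47, so values in that range carry little signal. The library labelled GFP-transfected stands apart. Its brightest Mycn probe set read 11.73, against means of 14.17 in tumour lines and 7.42 in parental arrays. Another Mycn probe set read 4.33 in that library, 4.60 in tumour lines and 8.13 in parental arrays, so that on both the library lay on the side of the tumour lines, against its label of a control. A dimmer Mycn probe set, not called in tumour lines, read 5.88 in that library, inside the parental range of 5.64 to 5.97, and 5.90 to 6.23 in tumour lines. Most of the 9 fibroblast markers set that library below both other groups. Their median difference was -2.08 for that library minus parental arrays and 4.07 for tumour lines minus that library. Over all genes these medians were -0.002 and 0.02. Col1a1 read 6.02 in that library. Tumour lines read 11.35 to 11.63 for this gene, and parental arrays 10.70 to 10.90. Fap went the other way, reading 4.87 in that library, nearer the tumour lines (4.43 to 4.73) than the parental arrays (9.69 to 10.10). The neural crest genes, given below, did not place that library on a single side. Zic1, Tfap2b and Ets1 lay nearer the parental arrays than the tumour lines. Pax3 lay inside the range of the tumour lines, and Snai2 lay below both groups. That library is single, and its part of the spread was assumed to match that of the other groups. Hybridisation control bioB was lower on parental array 3 (7.70) than on the other arrays (8.86 to 9.17).

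The promoters of Epha2, Epha3 and Epha4 are shown because these members gave the largest rise, the largest fall and, for Epha4, a fall in tumour lines beside the highest value in the GFP-labelled library. Each sequence covers the 250 bases before the annotated start of the gene, taken from RefSeq on build GRCm38.p6 and written along the strand of the gene, at chr4:141300971-141301220 on the plus strand for Epha2, chr16:63864176-63864425 on the minus strand for Epha3 and chr1:77515089-77515338 on the minus strand for Epha4. Capitals mark the letters TGACGTCA, which occur in the Epha2 promoter.
Epha2: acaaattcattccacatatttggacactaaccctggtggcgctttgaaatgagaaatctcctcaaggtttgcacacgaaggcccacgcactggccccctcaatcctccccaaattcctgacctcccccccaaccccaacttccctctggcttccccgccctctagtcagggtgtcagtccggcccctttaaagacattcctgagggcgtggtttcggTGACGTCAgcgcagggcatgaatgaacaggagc
Epha3: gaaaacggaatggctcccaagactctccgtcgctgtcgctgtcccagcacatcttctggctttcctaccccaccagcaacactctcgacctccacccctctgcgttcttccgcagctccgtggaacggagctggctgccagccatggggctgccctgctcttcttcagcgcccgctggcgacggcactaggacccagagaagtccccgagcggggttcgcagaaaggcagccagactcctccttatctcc
Epha4: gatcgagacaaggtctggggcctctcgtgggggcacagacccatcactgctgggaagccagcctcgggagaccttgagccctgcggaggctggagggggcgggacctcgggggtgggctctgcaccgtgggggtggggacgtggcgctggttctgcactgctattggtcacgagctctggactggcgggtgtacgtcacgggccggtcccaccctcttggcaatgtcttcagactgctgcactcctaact
Motifs were searched on both strands, in windows that ran from 250 bases before to 50 bases after the start. The E-box CACGTG, a motif that MYC proteins are known to bind, was found in 0 of the 11 windows of the 10 members and in 7.15% of all 32851 windows. The motif TGACGTCA, which cyclic AMP-responsive factors are known to bind and which was looked for after the sequences had been read, was found in 1 member window, that of Epha2, 33 bases before the start, and in 1.79% of all windows. A match of letters does not show binding, and the absence of one says nothing about the factor. The windows held 10 CG dinucleotides for Epha2, 18 for Epha3 and 17 for Epha4, where the median over all windows was 7.

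The main comparison asked how the family differed between lines from MYCN tumours and the precursor cells. Of the 9 measured members, 1 rose (Epha2) and 5 fell (Epha3, Epha4, Ephb3, Ephb4 and Efnb2) in tumour lines against parental arrays, and Epha5, Epha7 and Efnb1 did not pass the test. Of the called members, 4 differed by at least 2-fold, as did 8.85% of all genes. The test was limma's moderated test over all 18193 genes, two-sided, with a Benjamini-Hochberg adjusted p under 0.05. It called 36.0% of all genes, 16.6% as higher and 19.4% as lower. The median difference of the members was -0.31, and that of all genes was 0.013. The median size of a difference, whatever its sign, was 0.70 among members and 0.18 among all genes. The tumour lines lay wholly to one side of the parental arrays for 7 of the 9 members, as for 44.4% of all genes. The members were chosen with such results known, so these counts describe them and test nothing about the list.

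**Figure D1:**
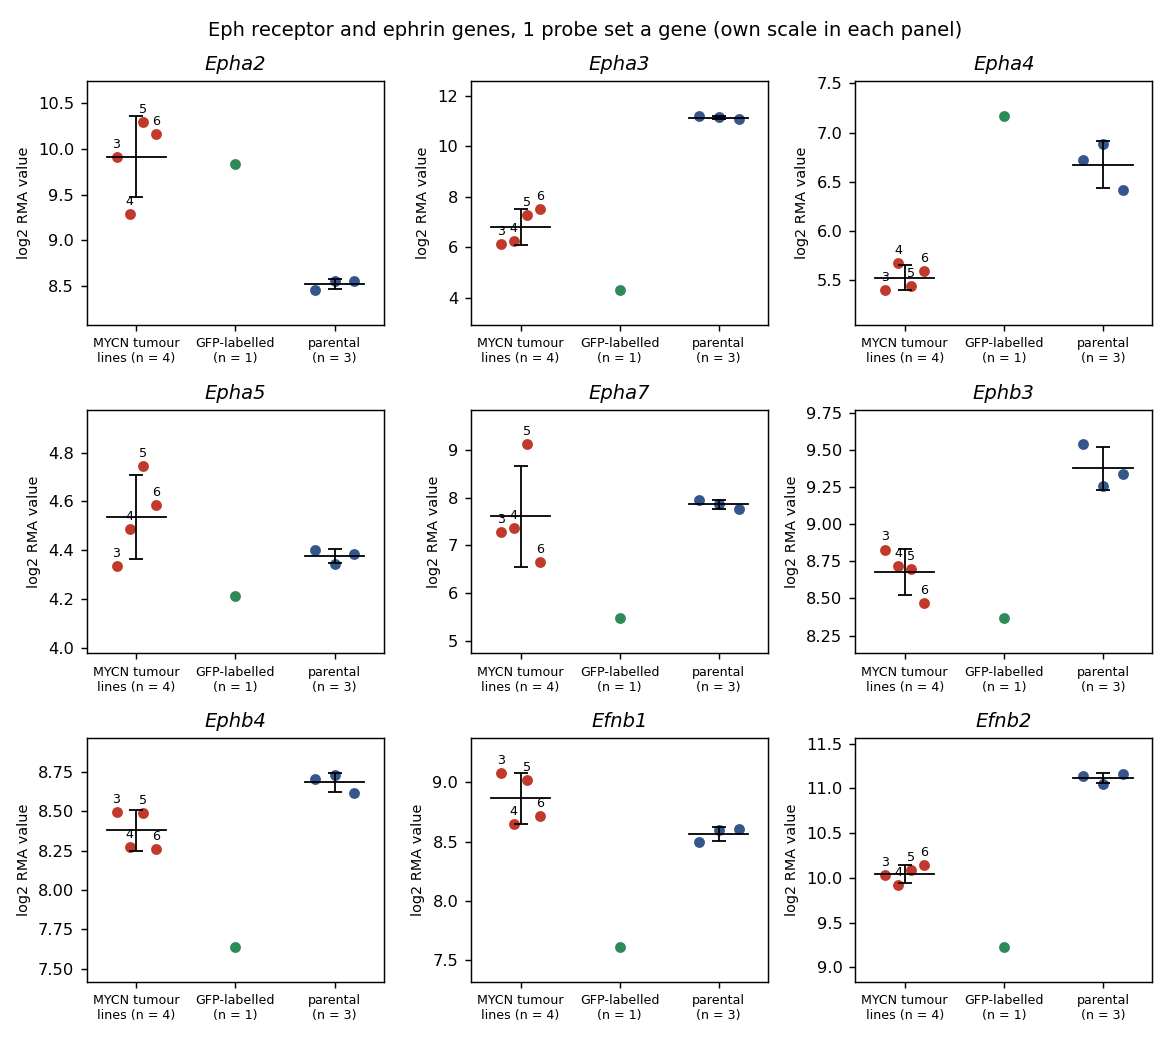
Log2 RMA values of the 9 measured members, with MYCN tumour lines (red, numbered), the library labelled GFP-transfected (green) and parental arrays (blue) from left to right, each panel on its own scale. Points are arrays, and horizontal lines with bars give the mean ± SD. Tumour lines lie above all parental arrays for Epha2 and Efnb1 and below them for Epha3, Epha4, Ephb3, Ephb4 and Efnb2, and the green point lies below all other arrays in 7 panels.

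Among the EphA receptors, Epha3 fell furthest. EphA3 is a receptor for ephrin-A5 known for its part in axon guidance and in the developing heart. Its brightest probe set read 6.14, 6.25, 7.28 and 7.50 in tumour lines 3, 4, 5 and 6, 4.30 in the library labelled GFP-transfected, and 11.19, 11.14 and 11.06 in parental arrays 1, 2 and 3. The 3 groups did not overlap, with parental arrays high, tumour lines between and the GFP-labelled library at the level of the trpnX controls. The mean was 6.79 ± 0.70 in tumour lines (SD, n = 4) and 11.13 ± 0.07 in parental arrays (SD, n = 3), a difference of -4.34 (SE 0.33, 20.2-fold lower, limma adjusted p = 2.48e-05). The GFP-labelled library differed from parental arrays by -6.83 (SE 0.50, limma adjusted p = 7.16e-05). Tumour lines were higher than that library, by 2.49 (SE 0.48, limma adjusted p = 0.00461). The sizes of both differences from that library depend on the floor of the scale, since its value lies within the range of the trpnX controls.

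All 4 probe sets of Epha3 were lower in every tumour line than in every parental array. Their differences were -4.34, -4.42, -2.74 and -0.85 from the brightest to the dimmest, and limma called each of them in a fit over all 34945 probe sets with a single gene symbol. In all of them, lines 5 and 6 read above lines 3 and 4. Tumour lines 5 and 6 read 5.79 and 6.14 with the second brightest, while lines 3 and 4 read 5.12 and 4.46. The third brightest read 4.30 to 4.64 in tumour lines, at or just above the trpnX controls, and 7.02 to 7.44 in parental arrays. The size of its difference thus depends on the floor. The dimmest probe set read 3.92 to 4.11 in tumour lines and 4.56 to 5.15 in parental arrays, both low on the scale. The order of the tumour lines with these dimmer probe sets carries little weight. The SD of Epha3 among tumour lines was at percentile 98.1 of all genes.

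Epha2 was the member that rose. EphA2 is a receptor for ephrin-A1 that is abundant in epithelia and in many carcinomas. It read 9.91, 9.29, 10.30 and 10.16 in tumour lines 3 to 6, 9.83 in the library labelled GFP-transfected, and 8.46, 8.55 and 8.56 in the parental arrays. Every tumour line was above every parental array, and the GFP-labelled library lay inside the range of the tumour lines. The mean was 9.91 ± 0.45 in tumour lines and 8.52 ± 0.06 in parental arrays, a difference of 1.39 (SE 0.21, 2.62-fold, limma adjusted p = 0.00115). The GFP-labelled library differed from parental arrays by 1.31 (SE 0.32, limma adjusted p = 0.0277), and this call was lost when any 1 parental array was left out (adjusted p = 0.0679 to 0.0766). Tumour lines differed from that library by 0.08, with a 95% interval of -0.63 to 0.80, so a difference between them of either sign is compatible with these values. Epha2 had a single probe set. Tumour line 4 was the lowest of the lines.

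Epha4 gave a different order of groups. EphA4 binds ligands of both ephrin classes and is known for steering motor axons and neural crest cells. It read 5.40, 5.67, 5.44 and 5.59 in tumour lines 3 to 6, 7.17 in the GFP-labelled library, and 6.72, 6.88 and 6.41 in the parental arrays. All tumour lines lay below all parental arrays, and the GFP-labelled library lay above them. The difference between tumour lines and parental arrays was -1.15 (SE 0.12, 2.22-fold lower, limma adjusted p = 0.000154). Against the GFP-labelled library, tumour lines were lower by 3.13-fold (-1.65, SE 0.18, limma adjusted p = 0.00023). The GFP-labelled library differed from parental arrays by 0.50 (SE 0.18), which was not called (limma adjusted p = 0.117), but 2 dimmer probe sets of Epha4 were called higher there, by 1.01 (adjusted p = 0.0175) and 1.08 (adjusted p = 0.000375) in the fit over single probe sets. With the mean of its probe sets in place of the brightest, the gene was called higher in that library (0.62, adjusted p = 0.00204).

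The 5 probe sets of Epha4 all read lower in every tumour line than in every parental array, and 3 of them were called. One of the dimmer probe sets read 4.24, 4.44, 4.32 and 4.50 in tumour lines, 7.41 in the GFP-labelled library, and 6.65, 6.02 and 6.52 in parental arrays, a difference between tumour lines and parental arrays of -2.02. Its tumour-line values lie at the trpnX controls, so that this probe set shows a fall to the floor where the brightest still read above it. The remaining 2 probe sets differed by -0.22 and -0.17 and were not called.

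Epha7 differed mainly among the tumour lines. EphA7 is a receptor of the developing brain and neural tube. It read 7.28, 7.37, 9.11 and 6.65 in tumour lines 3 to 6, 5.46 in the GFP-labelled library, and 7.94, 7.86 and 7.76 in the parental arrays. Line 5 was above all parental arrays, while lines 3, 4 and 6 were below them. Its SD among the tumour lines was 1.06, at percentile 99.4 of all genes, whereas the parental arrays had an SD of 0.09. Across the tumour lines the difference from parental arrays was -0.25, with a 95% interval of -1.37 to 0.87 (limma adjusted p = 0.75). Without tumour line 5 it was -0.75 and called (limma adjusted p = 0.0139). Line 5 was also the highest tumour line with the other 3 probe sets of the gene. The GFP-labelled library differed from parental arrays by -2.39 (SE 0.74) and was not called (limma adjusted p = 0.065). It was called without tumour line 5 (adjusted p = 0.000788), without tumour line 6 (0.0459) and with array weights (0.0168). It differed by -0.40 to -0.19 with the other probe sets.

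Epha5, a receptor of the forebrain, was near the floor on every array. Its 4 probe sets ran from 3.62 to 4.74 in tumour lines, 3.76 to 4.21 in the GFP-labelled library and 3.45 to 4.40 in parental arrays. The brightest differed by 0.16 between tumour lines and parental arrays, with a 95% interval of -0.06 to 0.39. It was not called in any of the 3 comparisons, at levels close to those of the trpnX controls, but was called against the GFP-labelled library without tumour line 3 (0.39, limma adjusted p = 0.0453).

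**Figure D2:**
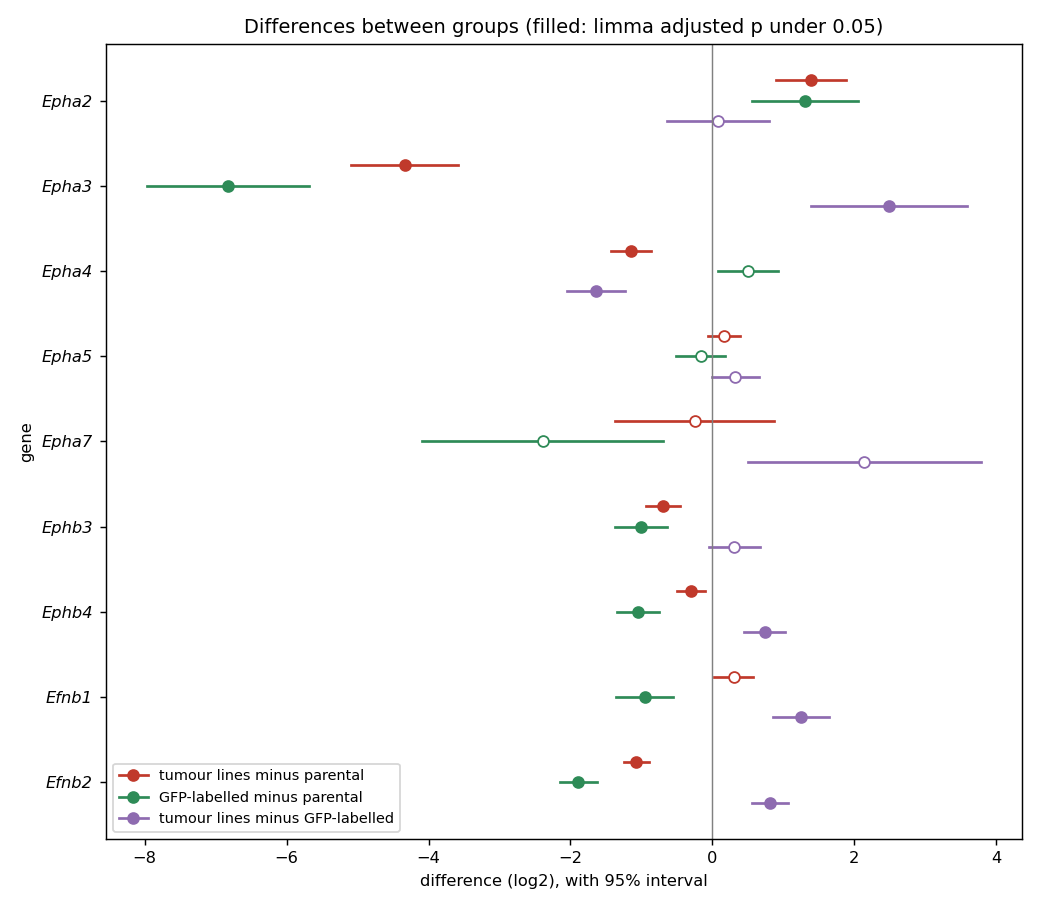
Differences on the log2 scale, as points with 95% intervals, for each member in 3 comparisons, tumour lines minus parental (red), the library labelled GFP-transfected minus parental (green) and tumour lines minus that library (purple). Filled points passed a limma adjusted p under 0.05. Epha3 reaches -4.34 in tumour lines and -6.83 in the GFP-labelled library, and the red and green points lie on opposite sides of 0 for Epha4, Epha5 and Efnb1.

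The EphB receptors fell less. EphB3 is known for positioning cells along the intestinal crypt. Ephb3 read 8.83, 8.72, 8.70 and 8.47 in tumour lines 3 to 6, 8.37 in the GFP-labelled library, and 9.54, 9.25 and 9.34 in the parental arrays. All tumour lines lay below all parental arrays, and the GFP-labelled library was lower still. Tumour lines differed from parental arrays by -0.70 (SE 0.11, 1.62-fold lower, limma adjusted p = 0.00107). From parental arrays the GFP-labelled library differed by -1.01 (SE 0.16, limma adjusted p = 0.00381), and tumour lines did not pass the test against it (0.31, 95% interval -0.04 to 0.67).

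EphB4 is the venous receptor for ephrin-B2. Ephb4 read 8.49, 8.27, 8.49 and 8.26 in tumour lines 3 to 6, 7.64 in the GFP-labelled library, and 8.70, 8.73 and 8.62 in the parental arrays. The groups did not overlap, but the tumour lines came close to the parental arrays. Tumour lines and parental arrays differed by -0.31 (SE 0.09, 1.24-fold lower, limma adjusted p = 0.0231), and the call was lost without parental array 1 (adjusted p = 0.0795), without parental array 2 (0.0847) and without tumour line 6 (0.0525). The GFP-labelled library was lower than parental arrays by 2.06-fold (-1.05, SE 0.13, limma adjusted p = 0.00119). Tumour lines were higher than that library by 0.74 (SE 0.13, limma adjusted p = 0.00243). Ephb3 and Ephb4 had a single probe set each.

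Of the ephrin-B ligands, Efnb2 fell in tumour lines and Efnb1 did not pass the test. Ephrin-B2, the partner of EphB4, marks arteries and forms a barrier to migrating neural crest cells. Efnb2 read 10.03, 9.92, 10.09 and 10.14 in tumour lines 3 to 6, 9.23 in the GFP-labelled library, and 11.14, 11.05 and 11.16 in the parental arrays. The 3 groups did not overlap, and the tumour lines were close to each other, with an SD of 0.10. Against parental arrays, tumour lines differed by -1.07 (SE 0.08, 2.10-fold lower, limma adjusted p = 1.72e-05). The GFP-labelled library differed from parental arrays by -1.89 (SE 0.11, 3.70-fold lower, limma adjusted p = 2.92e-05), and tumour lines were higher than that library by 0.82 (SE 0.11, limma adjusted p = 0.000772). Of its 4 probe sets, 3 were called lower in tumour lines, with differences of -1.07, -1.16 and -0.49, and the dimmest differed by -0.30 and was not called.

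Ephrin-B1, encoded on the X chromosome, is needed in neural crest cells for the shape of the face and skull. Efnb1 read 9.08, 8.64, 9.02 and 8.72 in tumour lines 3 to 6, 7.61 in the GFP-labelled library, and 8.50, 8.60 and 8.60 in the parental arrays. All tumour lines lay above all parental arrays, line 4 by the smallest margin, and the GFP-labelled library was far below both. The difference between tumour lines and parental arrays was 0.30 (SE 0.12) and was not called (limma adjusted p = 0.0824). It was called without tumour line 4 (0.37, adjusted p = 0.0286) and with array weights (0.31, adjusted p = 0.0378). In the GFP-labelled library Efnb1 was lower than in parental arrays by 1.94-fold (-0.95, SE 0.18, limma adjusted p = 0.00797). Tumour lines were higher than that library by 2.38-fold (1.25, SE 0.17, limma adjusted p = 0.00078). The 3 probe sets of Efnb1 differed by 0.30, 0.22 and 0.30 between tumour lines and parental arrays, none of them called. With the second brightest the groups overlapped, tumour line 6 reading 7.96 and parental array 3 reading 8.02.

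**Figure D3:**
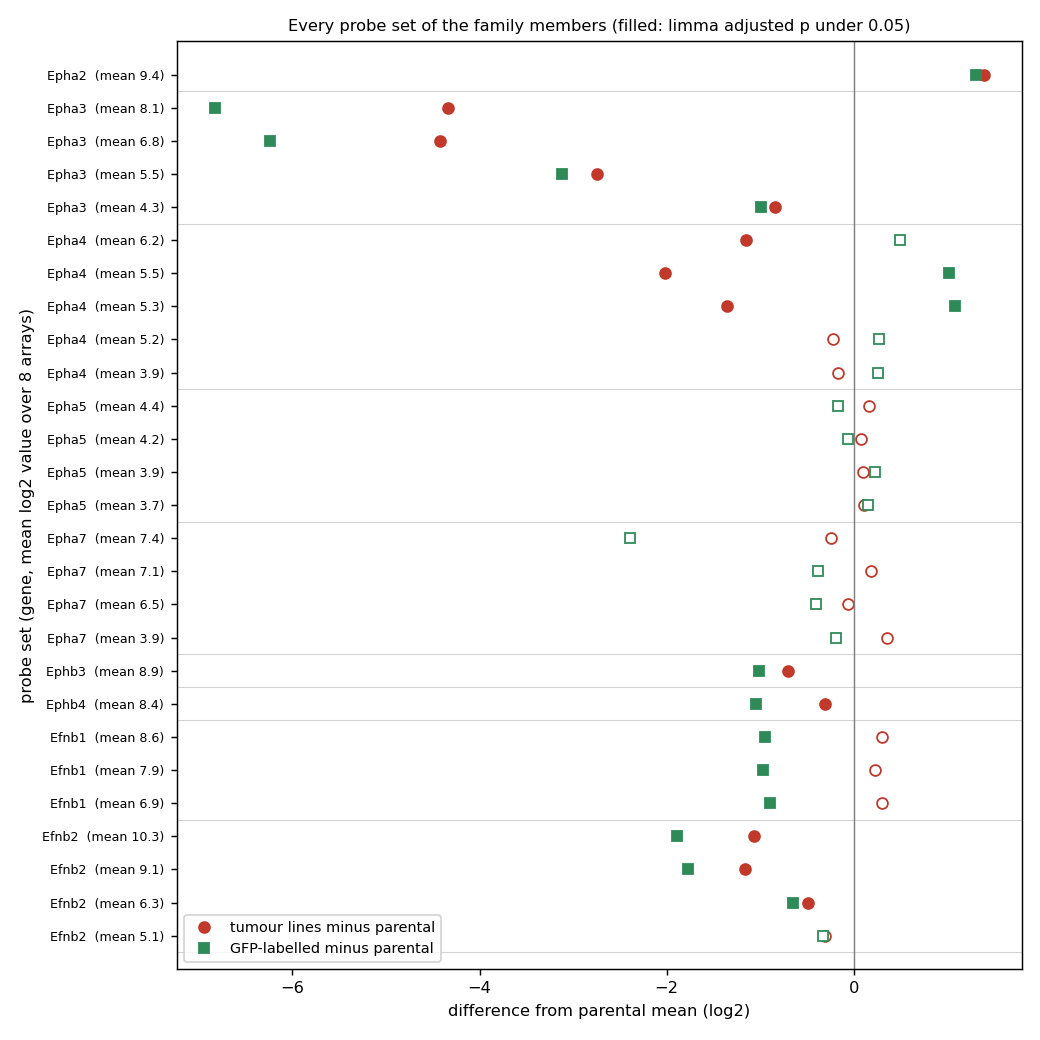
Difference from the parental mean on the log2 scale for each of the 27 probe sets, ordered by gene and by mean level, for tumour lines (red circles) and the library labelled GFP-transfected (green squares). Filled symbols passed a limma adjusted p under 0.05 over all probe sets. All 4 probe sets of Epha3 lie left of 0 in both comparisons, and all 5 of Epha4 lie left of 0 in tumour lines and right of 0 in the GFP-labelled library.

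Over the 27 probe sets, 1 was called higher and 12 lower in tumour lines than in parental arrays, where limma called 33.9% of all probe sets with a single symbol. The remaining 14 did not pass the test.

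The library labelled GFP-transfected was the lowest of the 8 arrays for 7 of the 9 members and the highest for 1 (Epha4), where it was the lowest for 21.4% and the highest for 22.0% of all genes. These counts rest on the brightest probe set of each gene. Among the 7 was Epha5, near the floor on every array, whose other probe sets did not place that library lowest. A dimmer probe set of Epha7 (6.20) and the dimmest of Efnb2 (4.97) placed it inside the range of the tumour lines. Against parental arrays, 1 member was called higher (Epha2) and 5 lower (Epha3, Ephb3, Ephb4, Efnb1 and Efnb2), where 16.1% of all genes were called, 7.43% as higher and 8.66% as lower. For 5 of those members the difference was at least 2-fold, as for 5.75% of all genes. Tumour lines were higher than that library for 4 members (Epha3, Ephb4, Efnb1 and Efnb2) and lower for 1 (Epha4), where 30.3% of all genes were called, 14.0% as higher and 16.4% as lower. For 3 of those members the difference was at least 2-fold, as for 12.0% of all genes. The 3 comparisons share arrays, so that an array that stands apart enters more than 1 of them. With the GFP-labelled library pooled with the parental arrays, 5444 of all 18193 genes and 2 of the 9 members were called in tumour lines, namely Epha2 (1.06, limma adjusted p = 0.0453) and Epha4 (-1.27, adjusted p = 0.000462). Epha3 (-2.63), Ephb3 (-0.45), Ephb4 (-0.04) and Efnb2 (-0.60) were no longer called.

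Markers of the cell types that a tumour line could hold were read beside these results. The neural crest list, 14 genes, averaged 7.55 to 7.86 in tumour lines, 8.17 in the GFP-labelled library and 8.28 to 8.31 in parental arrays. Of these, 2 rose in tumour lines, Msx1 (1.05) and Snai2 (0.53), and 4 fell, with Tfap2b (-5.20) and Zic1 (-4.48) furthest. All genes were called higher in 16.6% and lower in 19.4% of cases. The median difference of the crest list was 0.05, so its lower average does not describe most of its genes. For Tfap2b the GFP-labelled library read 8.77, nearer the parental arrays (9.69 to 9.99) than the tumour lines (4.31 to 4.86). Its Zic1 value of 9.67 was also nearer the parental arrays (9.40 to 9.50) than the tumour lines (3.85 to 7.29). Ets1, which also fell, read 11.37 in that library, inside the parental range of 11.25 to 11.46. Pax3, the other gene that fell, read 9.35 in that library, inside the tumour-line range of 9.07 to 9.91. The parental arrays read 10.50 to 10.65 for Pax3. Snai2 read 10.73 in that library, below the tumour lines (11.81 to 12.33) and the parental arrays (11.47 to 11.60). The defining gene Sox10 read 7.40 to 7.47 in tumour lines, against 7.19 to 7.41 in parental arrays. The crest gene Foxd3 read 4.62 to 4.80 in tumour lines and 4.41 to 4.72 in parental arrays, and Ngfr read 5.08 to 5.47 in tumour lines and 5.23 to 5.53 in parental arrays. Of 11 endothelial markers, which bear on Efnb2 and Ephb4, limma called 0 between tumour lines and parental arrays, and 0 passed at an unadjusted p under 0.05. Without tumour line 4, 1 was called. Their mean level was 5.77 to 5.86 in tumour lines and 5.70 to 5.86 in parental arrays. The defining genes Pecam1 and Cdh5 read 4.97 or lower in both groups, but other genes of the list read higher. In tumour lines Kdr read 7.07 to 8.44, Flt1 6.93 to 7.80 and Eng 8.28 to 8.43. In parental arrays they read 7.17 to 7.40, 7.51 to 7.62 and 8.20 to 8.37. In the GFP-labelled library Cdh5 read 6.71.

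Of 9 epithelial markers, which bear on Epha2, 1 was called (Krt19, -0.26), which was lost when any 1 parental array was left out (0 called), and the list averaged 5.78 to 5.88 in tumour lines and 5.79 to 5.83 in parental arrays. Epcam read 8.18 to 8.39 in tumour lines and 8.21 to 8.41 in parental arrays, whereas Cdh1 was at the floor in both. The 9 leukocyte markers averaged 5.94 to 6.01 in tumour lines and 5.51 to 5.72 in parental arrays, and 3 of them rose, Cd14 (1.83), Cd68 (0.80) and Lyz2 (0.49). With the mean of probe sets, 5 were called. The defining gene Ptprc read 4.05 to 4.14 in tumour lines and 3.90 to 4.37 in parental arrays, both at the floor. Fibroblast markers moved both ways in tumour lines, 4 up and 2 down of 9, and 3 of 9 pericyte and smooth muscle markers rose. Beside them, 16.6% of all genes were called higher and 19.4% lower. The fibroblast list averaged 9.49 to 10.21 in tumour lines and the pericyte and smooth muscle list 8.57 to 8.94, both above the parental arrays. Fap fell by 5.31, while Cnn1 rose by 5.04, Col1a2 by 2.99 and Pdgfra by 2.56. Thy1 rose from 4.80 to 5.08 across parental arrays to 7.78 to 9.99 across tumour lines. In the GFP-labelled library the fibroblast list averaged 6.49, against 9.29 to 9.41 in parental arrays, and the pericyte and smooth muscle list 6.31, against 7.92 to 8.01. Of their genes, 7 and 4 were called lower in that library, beside 8.66% of all genes. The part of these shifts in the members' differences was not tested. In bulk RNA, fewer cells of a type and less RNA per cell cannot be told apart.

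**Figure D4:**
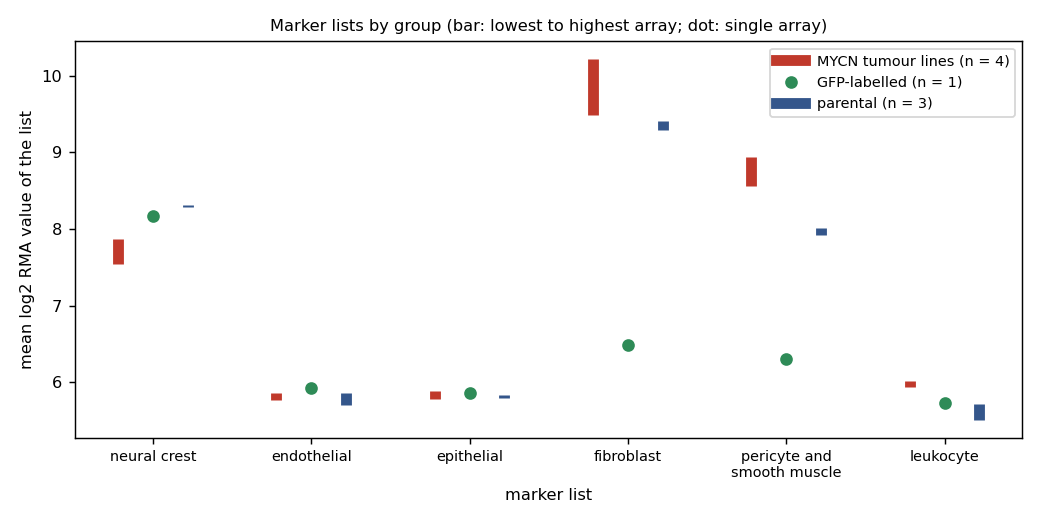
Mean log2 RMA value of 6 marker lists in MYCN tumour lines (red), the library labelled GFP-transfected (green) and parental arrays (blue). Bars run from the lowest to the highest array, and the dot is the single library. The GFP-labelled library lies at 6.49 for the fibroblast list and 6.31 for the pericyte and smooth muscle list, below the other groups.

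The remaining 12 Eph and ephrin genes were all measured, by 18 probe sets. Of these, 2 rose (Efna1 and Ephb6) and 3 fell (Efna2, Efna4 and Efna5) in tumour lines against parental arrays, with a median difference of 0.01, beside 16.6% of all genes called higher and 19.4% called lower. Efna1 encodes ephrin-A1, the ligand of EphA2. It read 9.27, 8.86, 8.88 and 8.49 in tumour lines 3 to 6, 6.85 in the GFP-labelled library, and 7.01, 6.80 and 6.80 in the parental arrays. The tumour lines were well above the other arrays, and the GFP-labelled library lay inside the range of the parental arrays. The difference between tumour lines and parental arrays was 2.01 (SE 0.16, 4.01-fold, limma adjusted p = 3.87e-05), and a second probe set gave 1.92. Tumour lines were also higher than the GFP-labelled library, by 2.03 (SE 0.24, limma adjusted p = 0.00037). Epha2 and the gene of its ligand were thus both higher in tumour lines than in parental arrays. From parental arrays the GFP-labelled library differed by -0.02 for Efna1 (SE 0.25) and by 1.31 for Epha2.

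The other ephrin-A ligands were lower or not called. Efna2 read 8.05, 8.15, 7.72 and 7.71 in tumour lines 3 to 6, 8.46 in the GFP-labelled library, and 9.58, 9.87 and 9.66 in the parental arrays, a difference between tumour lines and parental arrays of -1.79 (SE 0.13, limma adjusted p = 2.12e-05). Efna4 read 7.74, 7.93, 7.65 and 7.61 in tumour lines, 7.50 in the GFP-labelled library, and 8.85, 8.77 and 8.78 in the parental arrays, a difference of -1.07 (SE 0.09, limma adjusted p = 4.11e-05), which was lost with the GFP-labelled library pooled with parental arrays (-0.74, adjusted p = 0.0885). Both genes were also called lower in the GFP-labelled library than in parental arrays, by -1.24 for Efna2 and -1.30 for Efna4. Efna5, a ligand of EphA3 and of other EphA receptors, read 9.88, 9.34, 10.04 and 10.14 in tumour lines, 9.70 in the GFP-labelled library, and 10.48, 10.39 and 10.39 in parental arrays. Its difference of -0.57 (SE 0.17, limma adjusted p = 0.0329) was lost when any 1 parental array (adjusted p = 0.0845 to 0.108) or tumour line 3 (0.0623) was left out, with the mean of its probe sets (-0.38, adjusted p = 0.0614) and with the GFP-labelled library pooled with parental arrays (-0.39, adjusted p = 0.238). Efna3 differed by -0.39 and was not called, though it was without parental array 1 (-0.58, adjusted p = 0.00686).

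**Figure D5:**
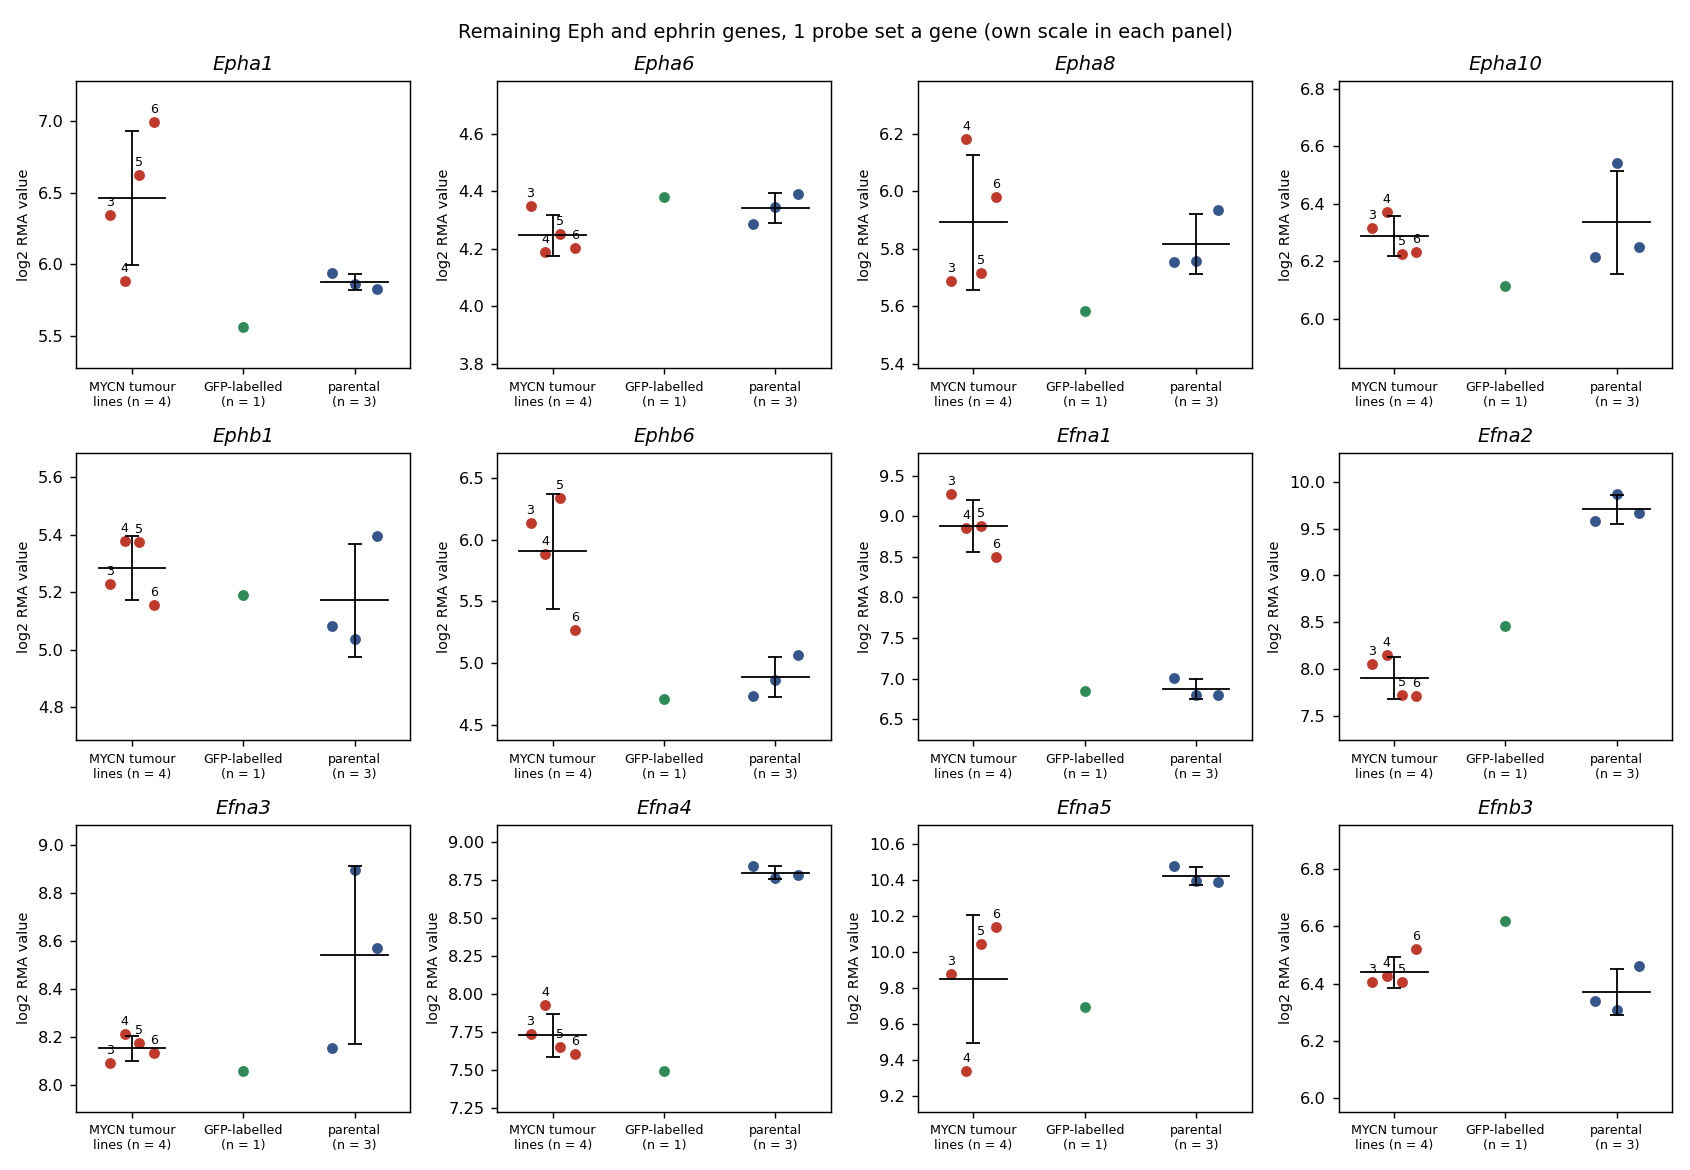
Log2 RMA values of the remaining 12 Eph and ephrin genes, drawn as for the members, with MYCN tumour lines left, the library labelled GFP-transfected in the middle and parental arrays right. Efna1 and Ephb6 lie above all parental arrays in every tumour line, and Efna2, Efna4 and Efna5 lie below them.

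EphB6 is a family member whose kinase domain is inactive. Ephb6 read 6.13, 5.88, 6.34 and 5.27 in tumour lines 3 to 6, 4.71 in the GFP-labelled library, and 4.74, 4.87 and 5.06 in parental arrays. The tumour lines were above all other arrays, line 6 least. Against parental arrays, tumour lines differed by 1.02 (SE 0.23, limma adjusted p = 0.00849). Epha1 differed by 0.59 (SE 0.22) and was not called (limma adjusted p = 0.0751), but was without tumour line 4 (0.78, adjusted p = 0.00575), with array weights (0.64, adjusted p = 0.0207) with the mean of its probe sets (0.46, adjusted p = 0.0465) and with that library pooled with parental arrays (0.66, adjusted p = 0.0481). Epha6, Epha8, Epha10, Ephb1 and Efnb3 differed by -0.09 to 0.11 between tumour lines and parental arrays and were not called.

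Genes that act with Eph receptors and ephrins were read from a list of 61, of which 56 were measured. In tumour lines against parental arrays, 11 rose and 19 fell, with a median difference of -0.05, beside the 36.0% of all genes called. The largest rise was that of Mmp14, a membrane protease known to cleave EphA2. Tumour lines averaged 11.17 ± 0.59, the GFP-labelled library read 5.84 and parental arrays averaged 7.71 ± 0.04 (difference between tumour lines and parental arrays 3.46, SE 0.28, limma adjusted p = 3.34e-05). Fyn, a Src-family kinase that acts downstream of Eph receptors and ephrins, rose by 1.63 (SE 0.11), and both of its probe sets were called. The guanine nucleotide exchange factor gene Kalrn, known in EphB signalling at synapses, rose by 2.16 (SE 0.44), though 5 of its 8 probe sets were not called. The syndecan gene Sdc2 (0.99), the adaptor gene Grb2 (0.99) and the gap junction gene Gja1 (0.97) rose as well.

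The largest falls on that list were smaller. Pick1, which encodes a PDZ protein that binds Eph receptors and ephrin-B tails, fell by 1.23 (SE 0.09, limma adjusted p = 1.95e-05), to 7.10 ± 0.15 in tumour lines, against 8.34 ± 0.01 in parental arrays. Afdn, which encodes another PDZ protein, differed by -0.86 (SE 0.07), and the adaptor gene Grb10 by -0.79 (SE 0.07). The actin regulator gene Limk1 (-0.79), and the exchange factor genes Vav2 (-0.75) and Tiam1 (-0.71), which link Eph receptors to Rac, fell too. Other, dimmer probe sets of Pick1, Afdn, Limk1, Vav2 and Tiam1 were not called. Not all of them were near the floor. A second Limk1 probe set averaged 7.97 in tumour lines and 8.11 in parental arrays (-0.15). A second Vav2 probe set averaged 7.63 and 7.73 (-0.10). In the GFP-labelled library Afdn was called higher than in parental arrays (0.55), and Limk1 differed by 0.64 and was not called.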

How the data were processed

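RNA of 8 cell samples was measured on 8 Affymetrix arrays. The deposited log2 values were made by the authors with RMA, with Partek also named, per the submitters' processing notes (no version given). That they are log2 follows from their range. Cells were lysed in Trizol and RNA was purified on columns, per the labels' protocols. The number of arrays limits the precision, and separate cultures are not stated for parental arrays, so p-values measure only the spread between these samples, which may be technical. The single GFP-labelled library was assumed to vary like the others.

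Of 45101 probe sets, 34945 carried 1 gene symbol in the platform annotation. The 64 controls, 932 with several symbols and 9160 with none were left out. For each of 18193 genes the brightest probe set, by its average across 8 arrays, was used. No filter on low values was used. Limma 3.58.1 in R 4.3.3 (lmFit and eBayes, a mean for each group, two-sided, Benjamini-Hochberg over all genes) gave differences, SE and 95% intervals. Calls used an adjusted p under 0.05. The script was tested on simulated data.

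The members and lists were chosen with earlier results of these data known. Named were all members, the remaining family genes, and, of called signalling genes, the 6 that rose most and the 6 that fell most. Promoters were matched by symbol, all 10 members having a window. Alternatives were the mean of probe sets, single probe sets, no _x_at or _s_at probe sets, genes above the median level, a trended and robust prior, array weights, quantile normalization again, median centring, each array left out, the GFP-labelled library pooled with parental arrays, a threshold of 0.01 and, added after seeing the data, that library left out of the fit.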

Additional observations from a re-analysis of the deposited data

Results flagged for a closer look

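Among the 4 tumour lines, each of the 27 member probe sets and the 12 remaining family genes was examined for a line whose gap to the nearest other line over the whole range exceeded Dixon's 95% critical value. None of these 39 sets of values had such a line. Groups of 3 arrays and the single library cannot be examined in this way.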

How the results depend on the processing

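The count of 6 members called between tumour lines and parental arrays ran from 5 to 7 when an array was left out, and the count for the GFP-labelled library against parental arrays from 5 to 7. With that library pooled with parental arrays, 2 members were called in tumour lines. Testing single probe sets raised the number of calls over all features, since more features entered, to 11843 for tumour lines against parental arrays (6547 genes), to 5015 for the GFP-labelled library against parental arrays (2927 genes) and to 10117 for tumour lines against that library (5514 genes). At an adjusted p under 0.01 the second of these comparisons had 1442 calls. No called difference of a member reversed its sign under any alternative run. Epha7, not called, ran from -0.75 to 0.35 between tumour lines and parental arrays. Epha7 against the GFP-labelled library was 2.14 (adjusted p = 0.0542), and was called without tumour line 5 (1.64, adjusted p = 0.00215), without tumour line 6 (2.46, adjusted p = 0.0243) and with array weights. Epha5 against that library was called without tumour line 3 (0.39, adjusted p = 0.0453). Among genes above the median level, 6 of the 9 members remained to be tested. Leaving the GFP-labelled library out of the fit changed no member's call. No paired analysis was possible because tumour lines and parental arrays share only the number 3, which ties no samples together.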

Other observations

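Other genes were ranked by how near their patterns lay to those of the members that moved most. After each gene was centred on its own mean over 8 arrays, the genes nearest to Epha2 by root mean square difference were Maff (0.178), which encodes a small MAF transcription factor, 2310030G06Rik (0.225) and Hsd3b7 (0.228), an enzyme gene of bile acid synthesis. Maff ran from 9.35 to 9.99 in tumour lines, read 9.76 in the library labelled GFP-transfected and ran from 8.10 to 8.30 in parental arrays. The genes nearest to Epha3 lay further from it, and were Islr (0.745), Cdh10 (0.766), which encodes a classical cadherin, and Fibin (0.811). Islr ran from 4.99 to 6.12 in tumour lines, read 4.82 in that library and ran from 10.32 to 10.54 in parental arrays. Cdh10 read 4.66 in that library, inside its tumour-line range of 4.56 to 5.77, whereas Epha3 read far below its tumour lines there. These are descriptions over 8 arrays, which share the group differences.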
